A study of Mus musculus with 6 samples.

Results

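Pcdh15 was examined across 4 lists of peaks from captures of methylated DNA in mouse erythroblasts. Its members are the listed peaks that touch the gene body or the 10 kb on either side. The body lies on mm10 chromosome 10 from 73096277 to 74649831 and is 1554 kb long (gene identifier 11994 in the RefSeq table). The rule took in 67 of 12963 peaks in all, 65 of them in the body and 2 after its end. Pcdh15 was chosen by its number of peaks in these same lists, so its counts, densities and recurrence are given as a description, with no test.

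The series holds 6 libraries of I/11 cells, a line of erythroblasts made from the fetal liver of p53-deficient mouse embryos (E12.5). Every culture was infected with lentivirus for a short hairpin RNA and selected with puromycin. The 4 lists used here come from cells in which Plcg1, which encodes an enzyme of phospholipid signalling, was targeted by hairpin 133 or hairpin 14. DNA fragments were captured with MBD2-Fc, a methyl-CpG binding domain fused to an antibody tail, which holds DNA with many methylated CpG sites. Each hairpin was harvested at 0 h (72 h after infection) and after 24 h in differentiation medium (96 h after infection). The 0 h cells had grown with 1 U/ml erythropoietin (Epo), 100 ng/ml stem cell factor and 1 uM dexamethasone, and the differentiation medium had 10 U/ml Epo and 0.5 mg/ml holo-transferrin. The 2 libraries of a scrambled control hairpin were not analysed here, and each group is 1 library of 1 line, so no difference between lists has a replicate check. The design text gives the question as how methylation changes in differentiation when Plcg1 is knocked down. A peak is a stretch that the authors listed for a library, with no score or direction. It was not given in the sources used here whether a listed stretch had more or less methylated DNA than a control.

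Pcdh15 encodes protocadherin 15, a large cadherin of sensory hair cells. With cadherin 23 it forms the tip link, the fine thread that joins neighbouring stereocilia and pulls on the mechanotransduction channel. Mutations of the gene cause deafness in mice and Usher syndrome in people. Its best known work is in the inner ear and the retina. A methylation library does not measure transcripts, so nothing here says whether the gene was expressed. DNA methylation at CpG sites in mammals is common within gene bodies, and CpG-dense promoters are mostly free of it.

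The sequence to look at first is the promoter window of Pcdh15, because a peak of every list overlapped it. RefSeq's promoter table on GRCm38.p6, which has mm10 coordinates, gives 1 start for the gene, on the plus strand at 73821867. That is 726 kb, or 46.7% of the way, into the gene body as the gene table gives it. The window runs from 250 bases before the start to 50 bases after it. It is printed 5′ to 3′ with each CpG in capitals, beside the window of Cpm, the gene of carboxypeptidase M. Cpm was picked for contrast after the values were seen, as the window with the most CpG sites on chromosome 10 among those that a peak of every list overlapped.
Pcdh15, plus strand, chr10:73821617-73821916: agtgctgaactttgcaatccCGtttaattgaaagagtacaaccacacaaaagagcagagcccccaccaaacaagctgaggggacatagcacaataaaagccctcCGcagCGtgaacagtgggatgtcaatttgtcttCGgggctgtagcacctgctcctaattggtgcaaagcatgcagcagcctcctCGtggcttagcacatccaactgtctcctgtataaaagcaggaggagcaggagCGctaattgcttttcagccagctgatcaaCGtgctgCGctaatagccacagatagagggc
Cpm, plus strand, chr10:117629250-117629549: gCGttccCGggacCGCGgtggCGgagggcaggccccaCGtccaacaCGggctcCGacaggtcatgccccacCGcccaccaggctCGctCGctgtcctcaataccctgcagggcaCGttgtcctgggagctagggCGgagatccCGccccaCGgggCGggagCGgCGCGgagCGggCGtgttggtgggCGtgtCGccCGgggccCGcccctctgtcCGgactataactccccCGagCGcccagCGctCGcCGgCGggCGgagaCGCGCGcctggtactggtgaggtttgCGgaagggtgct

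In all 4 lists the peak at the Pcdh15 start began just inside the transcribed side. At 0 h it started 1 base after the annotated start with both hairpins (73821868 to 73822018), and at 24 h it started 15 bases after it, again with both (73821882 to 73822032). The listed stretch covers the last 49 bases of the printed window, from base 252 on, and these hold 2 of its CpG sites. The rest of the peak lies beyond the printed sequence.

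The Pcdh15 window held 8 CpG sites, a G+C content of 50.7% and 0.416 times the CpG number its base composition would give. The Cpm window held 37 CpG sites, a G+C content of 73.7% and 0.910 times that number. Over all 32851 promoter windows of the table (27025 genes) the median was 7 CpG sites, and 48.7% had at least 8. Pcdh15 therefore sat near the middle of all promoters in CpG content.

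Promoter windows overlapped by a peak in every list were rare, 46 of 32851 or 0.140%, and came from 43 genes. Their median was 21 CpG sites, with a range of 3 to 38, and their median G+C content was 63.7%. Only 3 of the 46, Pcdh15 included, had 8 or fewer. The others were Stra6l with 3 and the predicted gene Gm26512 with 8 in 1 of its windows, both named after their values were seen. The Pcdh15 window thus had a CpG content that few other recurrent promoter windows had, a comparison that was not tested. Only 49 of its 300 bases, with 2 of its 8 CpG sites, lie in the listed stretch. The CpG content of the whole peak was not analysed.

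The same window holds the letters TATAAA, the core of a TATA box, once on its plus strand, starting 33 bases before the annotated start. On the forward strand alone these letters were in 8.32% of all promoter windows. On either strand they were in 13.6% of all windows, and in 7 of the 46. The match describes the letters and says nothing about which factors bind.

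**Figure D1:**
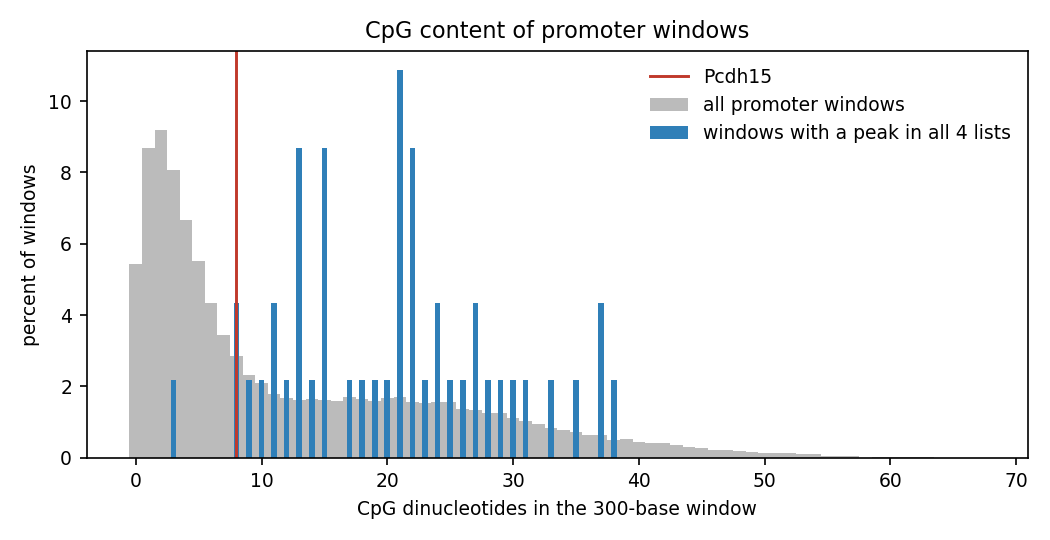
Percent of promoter windows (y axis) by their number of CpG dinucleotides (x axis, sites per window of 300 bases), for all 32851 windows (grey) and for the 46 that a peak of every list overlapped (blue). The red line marks the Pcdh15 window at 8 sites, close to the median of all windows (7) and below the median of the 46 (21).

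Pcdh15 was chosen by its number of peaks in these lists, so its first place by count is part of that choice. At 0 h the body of Pcdh15 had 25 peaks for hairpin 133 and 15 for hairpin 14. At 24 h it had 13 for hairpin 133 and 12 for hairpin 14. It ranked first of 21887 protein-coding genes every time. The next genes in those lists had 6 (Msrb3), 6 (Lgr5), 5 (Lin7a) and 5 (Mast4). Summed over lists, Pcdh15 had 65 peaks and Lin7a, a cell polarity gene also on chromosome 10, had 17.

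Since the lists differ in length, the share of each list is the fairer measure. With the 10 kb on either side, Pcdh15 took 0.641% of 3900 peaks with hairpin 133 at 0 h (exact binomial 95% interval 0.415 to 0.945%) and 0.436% of 3437 with hairpin 14 (0.244 to 0.719%). At 24 h it took 0.473% of 2960 (0.259 to 0.792%) and 0.488% of 2666 (0.260 to 0.832%). All 4 intervals overlap widely. By time the shares were 0.545% at 0 h (40 of 7337) and 0.480% at 24 h (27 of 5626). By hairpin they were 0.569% for hairpin 133 (39 of 6860) and 0.459% for hairpin 14 (28 of 6103). The 24 h lists were shorter as well as poorer in Pcdh15 peaks, and from 0 h to 24 h the share was lower with hairpin 133 and higher with hairpin 14. These intervals cover counting error only.

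Merging overlapping peaks gave 31 distinct regions, 30 in the body and 1 after it. They were far from even along the gene. The body was divided into 4 equal stretches of 388 kb. The first, at the 5′ end, held 0 of the 65 body peaks, which allows a share of up to 4.62% (3 counts of the total). Many of these peaks are the same region in several lists, and for the 31 regions the same rule allows up to 9.68%. The second stretch held 18 peaks, the one after it 11, and the stretch at the 3′ end 36, or 55.4%.

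The unevenness was seen in each list. After the empty first stretch, the 0 h list of hairpin 133 had 8, 6 and 11 peaks along the gene, and that of hairpin 14 had 5, 3 and 7. The 24 h list of hairpin 133 had 3, 1 and 9, and that of hairpin 14 had 2, 1 and 9. In every list the 3′ stretch was therefore the fullest.

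The first region began 400 kb into the body. Before it came a stretch of 659 kb with no peak in any list, from the peak of hairpin 14 at 0 h that ended at 72837123. Within the body the 29 gaps between neighbouring regions had a median of 20.3 kb. Of these gaps, 11 were under 10 kb and 4 were over 100 kb, the widest 183 kb. The smallest was 75 bases, between 2 regions at 74158831 and 74159057 that were listed at 0 h only.

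Other annotated genes lie inside Pcdh15, and none of them held a peak. They are the pseudogenes Gm5778, Gm19168 and Gm6407 and the long noncoding RNA gene Gm40691. These genes cover a very small part of the body, so the lack of a peak in them says little. The tables used here have no exons, so whether a region is exonic or intronic was not analysed here, and sequence away from the promoter window was not used.

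**Figure D2:**
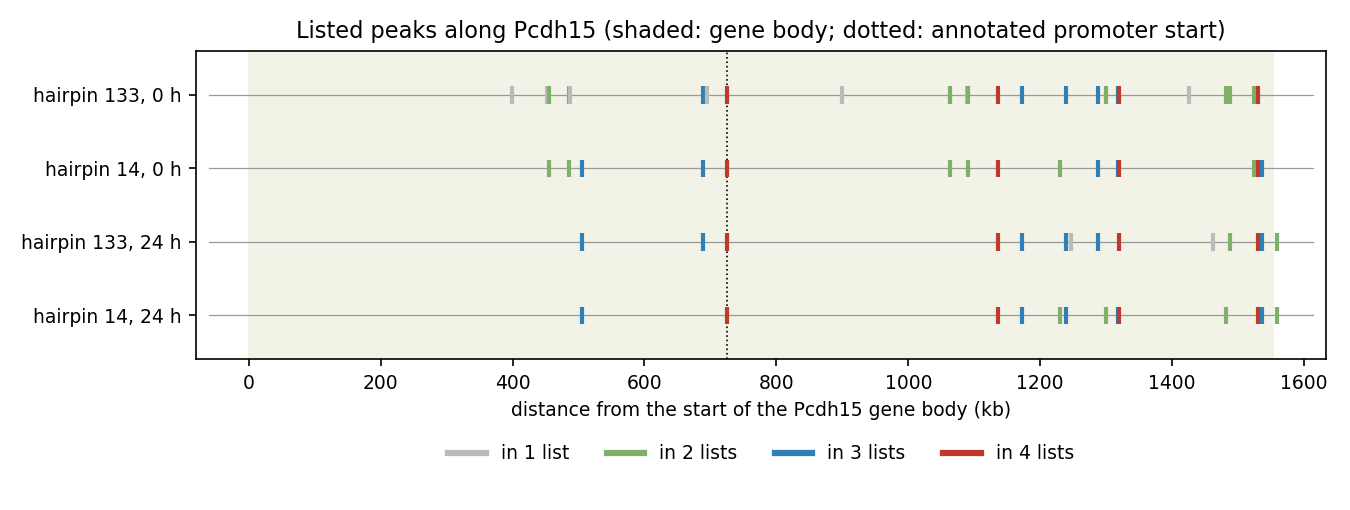
Each tick is a peak, placed by its distance in kb from the start of the Pcdh15 gene body (x axis), in the 4 lists (rows) and coloured by the number of lists that share its region. Ticks are absent from the first 400 kb, crowd toward the far end, and the 4 red regions stand in every row, the first of them at the annotated promoter start (dotted line).

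Of the 4 regions found in every list, 1 was the promoter region above and 3 lay in the distal part of the gene. These 3 began 1135 kb, 1320 kb and 1530 kb into the body, at 74231733, 74416081 and 74626657. At the first of them the 24 h peaks started 6 bases after the 0 h peaks, and at the other two they started 5 and 7 bases before them. Both hairpins gave the same start and end at each time in all 4 regions. The share of Pcdh15 regions found in every list was 12.9% (4 of 31, exact binomial 95% interval 3.63 to 29.8%), against 2.36% of all 10085 merged regions. The gene was chosen on its peaks in these lists, so nothing is read from that difference.

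Another 7 regions were found in 3 lists. Hairpin 133 at 0 h was the absent list in 2 of them, at 73602055 and 74631920, and hairpin 14 at 0 h was absent in 2, at 74268581 and 74336029. Hairpin 14 at 24 h was absent in 2, at 73784875 and 74384333, and hairpin 133 at 24 h in 1, at 74413821. Each of the 4 lists was thus missing from at least 1 region that the other 3 shared.

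Regions of 2 lists at different times numbered 4. The same hairpin gave 2, at 74325994 with hairpin 14 and at 74584125 with hairpin 133. Different hairpins gave the other 2, at 74396338 and 74578099, both with hairpin 133 at 0 h and hairpin 14 at 24 h. A further 5 were listed with both hairpins at 0 h and at no later time, at 73551994, 73582532, 74159057, 74187068 and 74619777.

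Regions listed at 24 h that neither 0 h list had numbered 3 of 31 (9.68%), beside 39.3% of the 10054 other regions. The region with both hairpins lay after the gene, 5503 bases past its end, at 74655334 to 74655484. Those with hairpin 133 alone lay at 74342579 and 74557662. Peaks just outside the 10 kb limit were 1 of hairpin 133 at 0 h and 1 of hairpin 133 at 24 h, both 25.7 to 25.8 kb past the end.

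Listing in a single sample was limited to hairpin 133. It alone gave 8 regions at 0 h and 2 at 24 h, or 25.8% and 6.45% of the 31. Of the 10054 other regions, 23.8% and 19.2% were listed with hairpin 133 alone at those times. Hairpin 14 alone gave 0 of 31 at either time, which allows a share of up to 9.68% (3 counts of the total). Among the other regions its shares were 19.8% at 0 h and 16.5% at 24 h. All 15 peaks of hairpin 14 at 0 h and all 13 at 24 h were found in at least 1 other list (exact binomial 95% intervals 78.2 to 100% and 75.3 to 100%). Of the other peaks of those lists, 41.8% and 37.6% were. For hairpin 133 the shares were 68.0% at 0 h (17 of 25, 46.5 to 85.1%) and 85.7% at 24 h (12 of 14, 57.2 to 98.2%), beside 38.1% and 34.3% of its other peaks. Across the gene 21 of 31 regions (67.7%) were in more than 1 list, against 20.8% of all merged regions, and nothing is read from this share for the same reason.

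**Figure D3:**
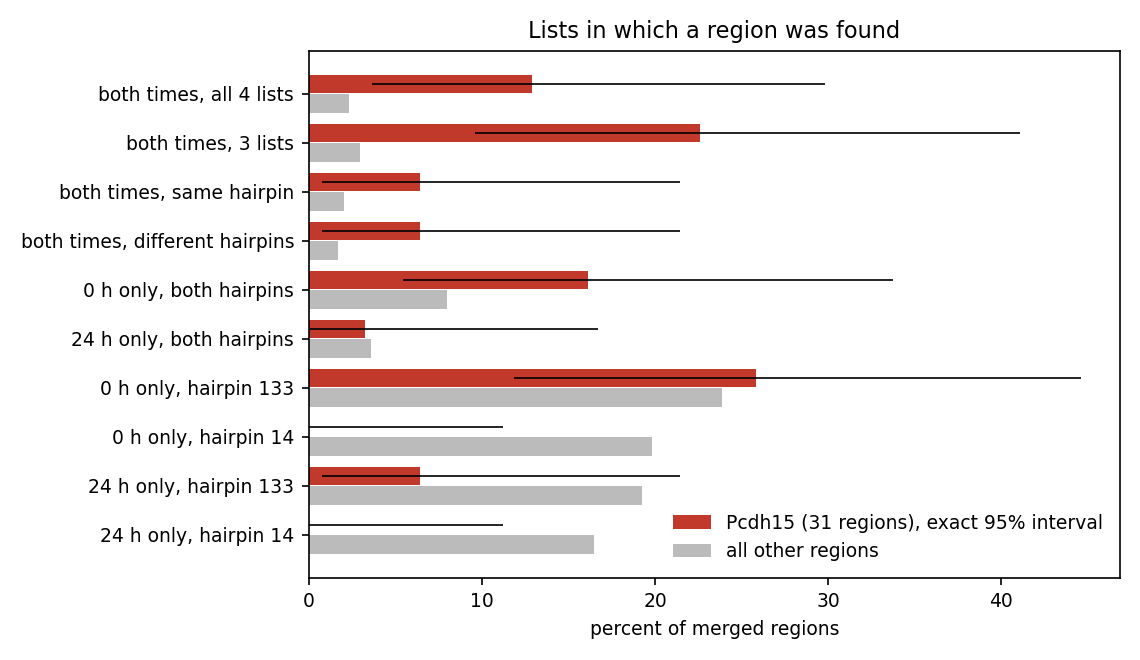
Percent of merged regions (x axis) by the lists in which they were found (y axis), for the 31 regions of Pcdh15 (red, bars with exact binomial 95% intervals) and for the 10054 other regions (grey). Regions of both times make up 48.4% at Pcdh15 and 9.05% elsewhere, and hairpin 14 alone gave 0 at Pcdh15. The gene was chosen on its peaks summed over these lists, so nothing is read from these differences.

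Of the 0 h peaks of Pcdh15, more were shared between hairpins than between times, in both lists. From the 0 h list of hairpin 133, 12 of 25 peaks (48.0%, 27.8 to 68.7%) were found with hairpin 14 at 0 h, and 9 (36.0%, 18.0 to 57.5%) with hairpin 133 at 24 h. From the 0 h list of hairpin 14, 12 of 15 (80%, 51.9 to 95.7%) were found with hairpin 133 at 0 h and 8 (53.3%, 26.6 to 78.7%) with hairpin 14 at 24 h. The intervals of the other hairpin and of the other time overlap in both lists. Of all other peaks in these lists, 30.8% (hairpin 133) and 34.9% (hairpin 14) were found with the other hairpin at 0 h, and 12.9% and 13.8% with the same hairpin at 24 h.

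At 24 h these shares were nearly equal. From hairpin 133, 9 of 14 peaks (64.3%, 35.1 to 87.2%) were found with hairpin 14 at 24 h, and 9 with hairpin 133 at 0 h. From hairpin 14, 9 of 13 (69.2%, 38.6 to 90.9%) were found with hairpin 133 at 24 h and 8 (61.5%, 31.6 to 86.1%) with hairpin 14 at 0 h. With both hairpin and time different, 9 of 25 (hairpin 133) and 8 of 15 (hairpin 14) peaks of the 0 h lists recurred, as many as with the same hairpin. Of all other peaks in the 0 h lists, 12.2% and 13.6% did. From the 24 h lists 8 of 14 (hairpin 133) and 9 of 13 (hairpin 14) recurred in this way, beside 15.8% and 17.8% of their other peaks. Of all other peaks in the 24 h lists, 25.0% (hairpin 133) and 27.7% (hairpin 14) were found with the other hairpin at 24 h, and 17.0% and 17.8% with the same hairpin at 0 h. Among these other peaks more were shared within a time than within a hairpin, in every list.

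Positions matched to the base within a time and shifted between times. All 12 Pcdh15 peaks shared by the hairpins at 0 h and all 9 shared at 24 h had identical start and end (exact binomial 95% intervals 73.5 to 100% and 66.4 to 100%). Elsewhere 79.2% and 92.7% of shared peaks were identical. Of the 15 regions found at both times, 1 kept the same start, at 74384333. In the others the 24 h start was higher in 8 and lower in 6, by -18 to 25 bases, with a median size of 8 over the 15. How the authors set peak positions across lists was not given in the sources used here.

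Along chromosome 10, Pcdh15 lay between a sparser stretch before it and a denser stretch after it. Summed over the 4 lists, so that a recurring region counts once per list, the body had 41.8 peaks per Mb (exact Poisson 95% interval 32.3 to 53.3). A stretch of the same length before the gene had 16.7 per Mb (10.9 to 24.5), and one after it had 90.1 (75.8 to 106). The gene was 2.50 times as dense as the stretch before it (1.56 to 4.11) and 0.464 times as dense as the stretch after it (0.340 to 0.627). In merged regions the counts were 18 before, 30 in the gene and 85 after. Pcdh15 therefore had the most peaks of any gene without being the densest place in its own neighbourhood. Further out the density fell again. Over the 4 lists, the 250 kb bins from 3250, 3500 and 3750 kb past the body start held 8, 1 and 7 peaks.

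The lists did not share the same profile. In the 0 h list of hairpin 133 the stretches before, in and after the gene held 7, 25 and 28 peaks, and in that of hairpin 14 they held 5, 15 and 33. The 24 h list of hairpin 133 had 5, 13 and 37 there, and that of hairpin 14 had 9, 12 and 42. The density of the gene over that of both flanks together was 1.43 for the 0 h list of hairpin 133 and 0.789 for that of hairpin 14. It was 0.619 for the 24 h list of hairpin 133 and 0.471 for that of hairpin 14. Over all lists it was at 0.783 times, with an interval of 0.579 to 1.05. That interval takes in equality, but it counts a recurring region once per list as if independent. With merged regions counted once the gene was at 0.583 times the density of these flanks. Against flanks of 5 Mb on either side it was at 1.53 times. Against flanks of its own length only the list of hairpin 133 at 0 h put the gene above them, and against flanks of 5 Mb every list did. The stretch after the gene held more peaks at 24 h than at 0 h with each hairpin although the 24 h lists are shorter, and the gene held fewer.

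On a wider scale the gene was denser than the mean of its chromosome on either side. Chromosome 10 before the gene had 4.76 peaks per Mb, close to the 4.76 of all placed chromosomes, and after it 17.8. Pcdh15 exceeded these by 8.79 times before the gene (6.64 to 11.5) and 2.36 times after it (1.80 to 3.03). It holds 4.62% of the 1406 peaks on chromosome 10 in 1.19% of its length, and the distal part of the chromosome beyond it holds 993.

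**Figure D4:**
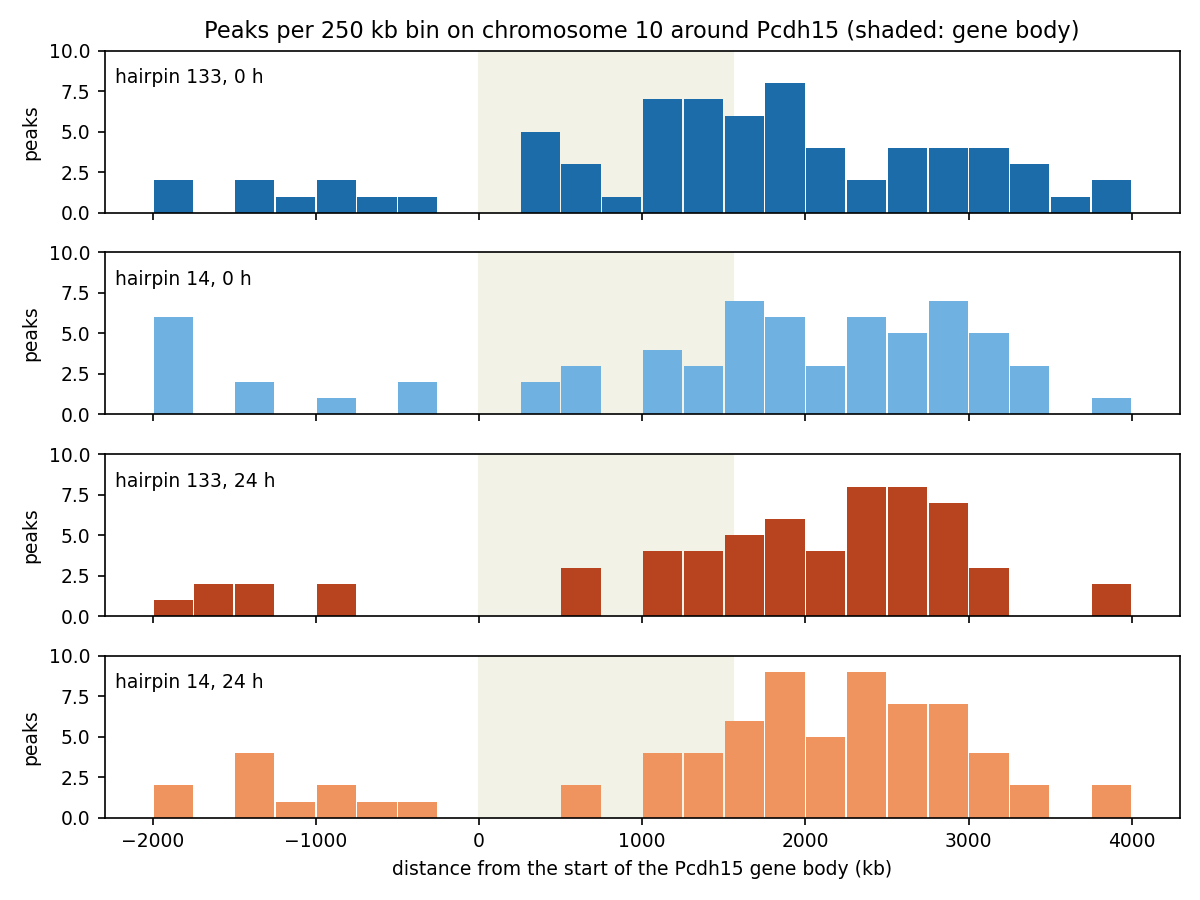
Peaks per bin of 250 kb (y axis) by distance in kb from the start of the Pcdh15 gene body (x axis), in 4 panels for the 4 lists; the gene body is shaded. Each list has 0 peaks in the first bin of the gene and in the bin before it, and from 1000 kb on the bins hold 3 to 9 peaks up to 2250 kb. Summed over the 4 lists, the bins from 3250, 3500 and 3750 kb hold 8, 1 and 7 peaks.

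The protein-coding genes within 1 Mb number 15, and 14 of them lie after Pcdh15. Of the 15, 13 held a peak in the body in some list and 4 in every list. The only gene before it was Zwint, a kinetochore gene that ends at 72674964, with 1 peak (hairpin 14 at 0 h). Of all 21887 protein-coding genes, 26.0% had a peak in the body or within 10 kb in some list, a wider window than the body alone. The share of all coding genes with a body peak in every list is not given here, so nothing is read from the 4.

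The 4 neighbours with a peak in every list were Rab36, Bcr, Adora2a and Lrrc75b. Bcr, known as a fusion partner in leukaemia, had 2, 2, 3 and 4 peaks (hairpins 133 and 14 at 0 h, then at 24 h). Rab36, a small GTPase gene, had 1, 1, 2 and 2 in the same order. Adora2a, an adenosine receptor gene, and Lrrc75b had 1 in each list. In Bcr and Rab36 the numbers were higher at 24 h with both hairpins, the reverse of the order in Pcdh15, and the times were not tested.

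None of the remaining neighbours had a peak in every list. Cabin1, a calcineurin binding protein gene, had 1, 0, 4 and 2, more in sum than Rab36, Adora2a or Lrrc75b. Rsph14, a radial spoke gene, had 1, 2, 0 and 1 peaks, and Gnaz, a G protein alpha subunit gene whose body overlaps it, had 1, 1, 0 and 1. Upb1, an enzyme of pyrimidine breakdown, and Snrpd3, a core spliceosome gene, had 3 peaks each over the 4 lists. Ggt1 had 2, Gucd1 and Specc1l had 1 each, and Ggt5 and Susd2 had 0.

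Per length, 12 of the 15 neighbours exceeded Pcdh15. Bcr, at 124 kb, had 88.5 peaks per Mb and Cabin1, at 118 kb, had 59.2. Specc1l, at 100 kb, had 10.0, which was lower than Pcdh15. Most neighbours are short, and in a gene such as Lrrc75b (10.6 kb) 4 peaks already give 379 per Mb, so these densities rest on few counts.

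Pcdh15 held more peaks than the mean density of genes would give for its length. At the mean density of protein-coding gene bodies a gene as long as Pcdh15 would hold 11.8 peaks over the 4 lists, and it held 65, or 5.51 times as many (exact Poisson 95% interval 4.25 to 7.02). At 0 h the factor was 7.21 for hairpin 133 (4.67 to 10.6) and 4.96 for hairpin 14 (2.77 to 8.17). At 24 h it was 4.77 for hairpin 133 and 4.65 for hairpin 14. The gene was chosen for its count, so these factors are a description.

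Of 227 protein-coding genes of at least 500 kb, Pcdh15 was the 13th longest and had the highest density. After its 41.8 peaks per Mb came Mast4, a microtubule-associated kinase gene, at 21.6, Atrnl1 at 21.1, Syt1, a synaptic calcium sensor gene, at 17.5 and Grip1, a synaptic scaffold gene, at 17.3. Syt1 and Grip1 are on chromosome 10 as well. The median of the other 226 was 1.54 per Mb, and 71 had no peak. The 5 longest genes held few: Dmd (dystrophin), Ptprd and Cntnap2 had 1 peak each over the 4 lists, Lsamp 5 and Lrp1b 4.

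Shorter genes reached higher densities. Among 2429 genes of at least 100 kb, 43 exceeded Pcdh15, and the longest gene above it was Tmcc3 at 279 kb. Lin7a (154 kb) had 111 peaks per Mb, Lgr5 (137 kb) 116 and Ntn4 (105 kb) 133, and all 3 are on distal chromosome 10. They also follow Pcdh15 directly in the number of peaks.

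**Figure D5:**
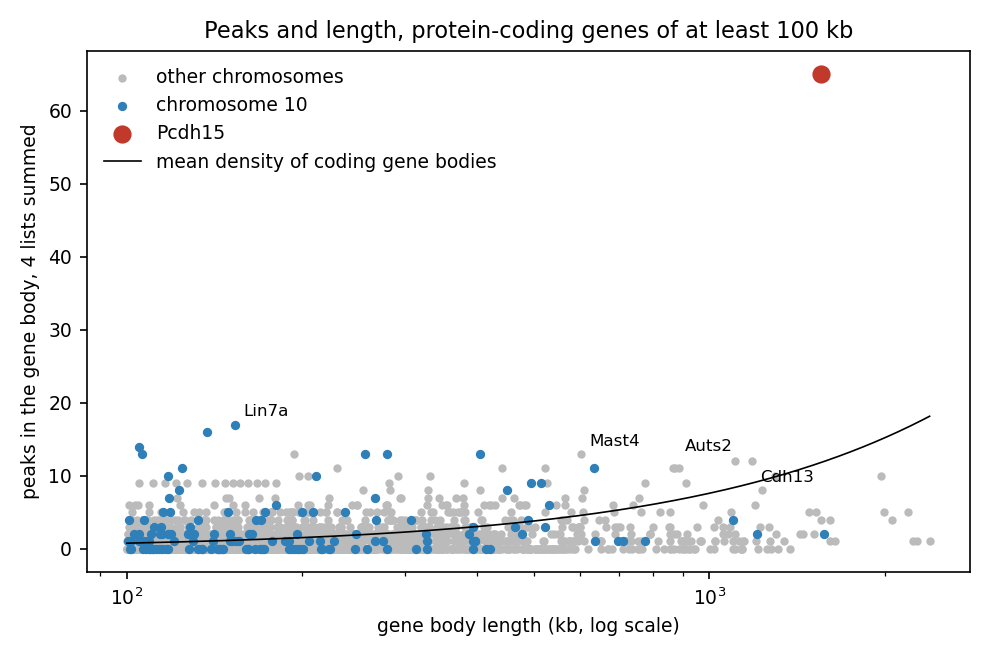
Peaks in the gene body summed over the 4 lists (y axis) against gene body length in kb (x axis, log scale) for the 2429 protein-coding genes of at least 100 kb, with chromosome 10 in blue and the mean density of coding gene bodies as a line. Pcdh15 stands alone at 65 peaks, and the next gene, Lin7a, has 17.

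The spread of Pcdh15 peaks over the 4 lists, 38.5%, 23.1%, 20% and 18.5%, was compared with that of the 74 genes that had at least 8 peaks in all. The measure was the sum of absolute differences between shares, which had a median of 0.400 over the other genes. The closest were Ccdc38 and Csgalnact1 (0.120 each, 9 peaks), Magi1 and Rasgef1b (0.138, 8 peaks) and Ntn4 (0.169, 14 peaks). Only Ccdc38 and Ntn4 of these are on chromosome 10. With 4 lists and so few peaks per gene this likeness is a description of counts.

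No other gene of the hair cell's tip link or of Usher syndrome in the list used here had more than 3 peaks in its body. Of 20 such genes, 7 (35%) had a peak in the body or within 10 kb in some list, beside 26.0% of all protein-coding genes, and 4, 4, 3 and 3 had one in the separate lists. Cdh23, the tip link partner of Pcdh15 and also on chromosome 10, had 1 peak with hairpin 133 at 0 h and 2 with hairpin 14 at 24 h in its 394 kb, or 7.62 per Mb over the 4 lists. Myo7a, the myosin motor of stereocilia, had 1 at 0 h (hairpin 133) and 1 at 24 h (hairpin 14). Myo15, another stereocilia myosin gene, had 2 peaks, both at 24 h, and Strc (stereocilin), 18.1 kb long, had 2, or 110 per Mb. Whrn (whirlin) and Tmc2, a subunit of the transduction channel, had peaks only in the 10 kb beside the body. The median member had 0 peaks in its body.

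In the list of unclustered protocadherins and large cadherins used here, which leaves out Pcdh15, no gene had more than 4 peaks. Of 22 members, 9 (40.9%) had a peak in some list, beside the same 26.0%, and 4, 3, 5 and 3 in the separate lists. Pcdh18, a short gene of 14.1 kb, had the most with 4, or 284 per Mb. Pcdh9, 879 kb long, had 2 peaks (2.27 per Mb), and Fat3, 592 kb long, had 2 (3.38 per Mb). Pcdh1, 26.1 kb long, had 2 peaks, both at 24 h, or 76.5 per Mb, so that both short genes were denser than Pcdh15. Fat1, Fat2, Fat4 and Dchs2 had 1 each, and Cdhr5 had 2 in the 10 kb beside its body. The median was again 0 peaks.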

How the data were processed

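Methylated DNA was captured from I/11 cells. Sheared DNA (3 ug, about 150 bp) was bound to 60 ug of MBD2-Fc, per the labels' protocols, and the 1 M NaCl eluate, rich in methylated CpG, was sequenced. Per the submitters' processing notes, BWA, Picard, SAMtools and HOMER were used on mm10, with no versions, roles or settings. The deposited lists give each peak's chromosome, start and end in base pairs, with no score, count or coverage. Threshold, filters and control are not given in the sources used here, and read depth is unknown. All peaks are 151 bp wide except 1 of 120 bp. Starts were read as 0-based and are printed as 1-based.

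Genes came from RefSeq's table on GRCm38.p6 (49943 genes on placed chromosomes, 21887 protein-coding), and strand and sequence from its promoter table. Peaks were assigned by any overlap, and peaks of the 4 lists were merged into regions at 1 bp of overlap. The 8 peaks on unplaced contigs were left out of densities. Chromosome length was taken to the last annotated gene end. Intervals are exact binomial or Poisson at 95%, count each peak as independent and cover counting error only. An interval of a ratio of densities came from the binomial interval of the 2 counts.

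No test was run, since each group is 1 library. The members, lists and rules were chosen with earlier results of these data known. Named genes are Pcdh15, coding genes within 1 Mb, the 5 longest and 5 densest genes of at least 500 kb, the 5 closest in pattern (at least 8 peaks) and members of 2 gene lists with a peak. For 1 list member with a peak, values are not reported here. Other genes, named for context, were chosen after their values were seen. Alternatives were the window, the overlap, peaks of identical coordinates, flank width, gene length and merged counting. Counting was tested on artificial peaks. Python 3.11.15, NumPy, pandas, SciPy and Matplotlib were used.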

Additional observations from a re-analysis of the deposited data

How the results depend on the processing

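Of 39 alternative values, 31 stayed within the interval of the reported share or ratio, or within 1.5 times the reported count or rank. The 8 that moved came from 3 choices. Without peaks of identical start and end in both lists of a time, 0 regions were in every list and no peak of any list was found in the list of the other hairpin of that time (0%), as the removal dictates when all shared peaks are identical. In the 3 peaks then left of hairpin 14 at 0 h the share found at 24 h with the same hairpin was 100%. With flanks of 5 Mb the gene was at 1.53 times their density. Among genes of at least 100 kb Pcdh15 ranked 44 by density. Distinct regions numbered 23 to 31 when each list was left out in turn, an alternative chosen after seeing the data, and 23 was without hairpin 133 at 0 h. A stricter peak threshold could not be tried because the lists carry no score. No paired analysis was possible because the results are counts of listed peaks, shares and ranks that come from no test. Read depth is unknown, so a stretch without a peak cannot be read as unmethylated.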
